A study of Mus musculus with 12 samples.

Results

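A set of 10 genes of white and brown fat was followed through the thymic tissue of mice: Adipoq, Plin1, Plin4, Cidec, Lep, Ucp1, Cidea, Fabp4, Lpl and Pparg. They were picked by symbol, 10 genes among the 24478 gene symbols of the tables, and each was read from the transcript with the most reads over the libraries. All 10 passed the filter on low counts, which kept 15606 genes. Poly(A) RNA of 12 libraries was compared, 3 in each of 4 groups. The control tissue was labelled as T lymphocytes that express only endogenous MYC. The T58A and S62A lymphomas arose spontaneously in the thymus and were labelled as T lymphocytes with only the ectopic MYC mutant of that name. The thymic tissue of S62A animals with splenomegaly was labelled as T and B lymphocytes, with both ectopic S62A and endogenous MYC. The labels used here give no strain, age or sex of the animals and no promoter of the ectopic MYC. They also leave unsaid whether each library came from an animal of its own, so p-values reflect only how far these libraries vary, in part perhaps for technical reasons.

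Fat cells store triglyceride in droplets and release hormones. White adipocytes hold a single large droplet and serve as an energy store, whereas brown adipocytes hold many small droplets and many mitochondria, in which the uncoupling protein Ucp1 turns respiration into heat. Both kinds depend on the nuclear receptor Pparg, and fat surrounds the thymus in the chest, with brown fat in the mediastinum. None of the labels names fat as a component of the tissue, and in bulk RNA fewer fat cells and less RNA per fat cell cannot be told apart.

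The fat genes were chosen with results of these data known, and the number of reads chose the transcript. Levels by library are therefore given as descriptions. Tests come from one model over all 15606 genes and are no independent evidence that fat genes as a class behave in a given way. CPM is a read count divided by library depth, with a TMM factor that evens out composition. Levels are compared between genes only as FPKM, which also divides by transcript length.

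The genes are under separate promoters, and the stretch around the start site is shown for 4 of them. These carry the contrast described below, with Ucp1 as the gene of brown fat and Adipoq, Plin1 and Lep as other fat genes. The RefSeq promoter table (GRCm38.p6) held 7 of the 10 genes, Adipoq, Plin1, Plin4, Cidec, Lep, Ucp1 and Pparg. Each entry runs from 250 bases before to 50 bases after the start, here on chr6:29059971-29060270 (plus strand) for Lep, chr7:79732727-79733026 (minus strand) for Plin1, chr16:23146286-23146585 (plus strand) for Adipoq and chr8:83290098-83290397 (plus strand) for Ucp1. Capitals mark TTGCNNAA, a core of the site of the C/EBP factors that act with Pparg in adipocytes.
Lep: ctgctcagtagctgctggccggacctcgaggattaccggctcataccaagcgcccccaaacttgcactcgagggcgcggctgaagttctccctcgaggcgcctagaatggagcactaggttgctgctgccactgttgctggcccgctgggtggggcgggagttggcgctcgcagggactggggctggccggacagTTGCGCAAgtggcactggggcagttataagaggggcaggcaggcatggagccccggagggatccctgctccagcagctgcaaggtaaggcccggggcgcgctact
Plin1: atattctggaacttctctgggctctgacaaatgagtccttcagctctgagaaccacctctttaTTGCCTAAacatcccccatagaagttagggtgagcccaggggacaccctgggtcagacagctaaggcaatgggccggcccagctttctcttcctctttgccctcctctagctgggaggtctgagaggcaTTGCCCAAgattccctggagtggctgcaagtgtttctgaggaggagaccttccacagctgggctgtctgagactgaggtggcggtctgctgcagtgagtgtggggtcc
Adipoq: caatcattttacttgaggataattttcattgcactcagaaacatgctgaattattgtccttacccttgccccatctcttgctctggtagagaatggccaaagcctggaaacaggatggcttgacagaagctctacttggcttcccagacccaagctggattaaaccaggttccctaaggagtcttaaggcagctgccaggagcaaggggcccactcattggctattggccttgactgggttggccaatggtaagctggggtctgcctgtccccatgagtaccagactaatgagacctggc
Ucp1: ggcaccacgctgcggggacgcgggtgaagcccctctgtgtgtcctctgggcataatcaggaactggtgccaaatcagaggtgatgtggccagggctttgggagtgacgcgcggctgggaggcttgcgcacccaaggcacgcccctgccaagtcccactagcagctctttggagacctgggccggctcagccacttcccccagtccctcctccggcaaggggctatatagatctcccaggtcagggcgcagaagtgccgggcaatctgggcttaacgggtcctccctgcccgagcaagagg
The motif TTGCNNAA was searched on both strands. It began 55 bases before the start in the Lep promoter, as the palindrome TTGCGCAA, and 187 and 58 bases before the start in the Plin1 promoter. It was in 4 of the 10 promoter entries of these genes, those of Lep and Plin1 and 1 entry each of Cidec and Pparg, and in 10.8% of all 32851 promoters. The palindrome, which is contained in the first motif, was in Lep alone among these genes and in 0.183% of all promoters.

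Depth ranged from 9577373 to 22437969 reads per library. Myc was at 79.9 to 85.5 CPM in control, at 134 to 159 in T58A lymphomas, at 157 to 203 in S62A lymphomas and at 84.2 to 100 in splenomegaly tissue. Thymocyte markers, 12 genes such as Cd3e and Rag1, summed to 12800 to 13900 CPM in control and to 854 to 896 CPM in splenomegaly tissue, with the lymphomas between at 3120 to 5110 CPM. The B cell list of 10 genes summed to 178 to 190 CPM in control and to 2410 to 3100 CPM in splenomegaly tissue, where all 10 rose against control (9 without control 3).

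One library stood apart from all others in fat genes. Control 3 had the highest level of 8 of the 10 genes among the 12 libraries, was second for Lpl and sixth for Pparg. Against the mean of controls 1 and 2, its CPM was 248-fold for Ucp1, 140-fold for Cidea, 28.6-fold for Plin1, 18.9-fold for Cidec, 17.7-fold for Plin4 and 14.2-fold for Adipoq. The ratio was 9.85 for Lep, 9.48 for Fabp4 and 4.97 for both Lpl and Pparg. Over all tested genes the median of this ratio was 0.977, and 81 genes (0.519%) exceeded 10-fold. This compares single libraries, so it has no test. The control group mean of every fat gene therefore rested largely on 1 library, and the tests of the 10 genes against control are given with and without it.

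**Figure D1:**
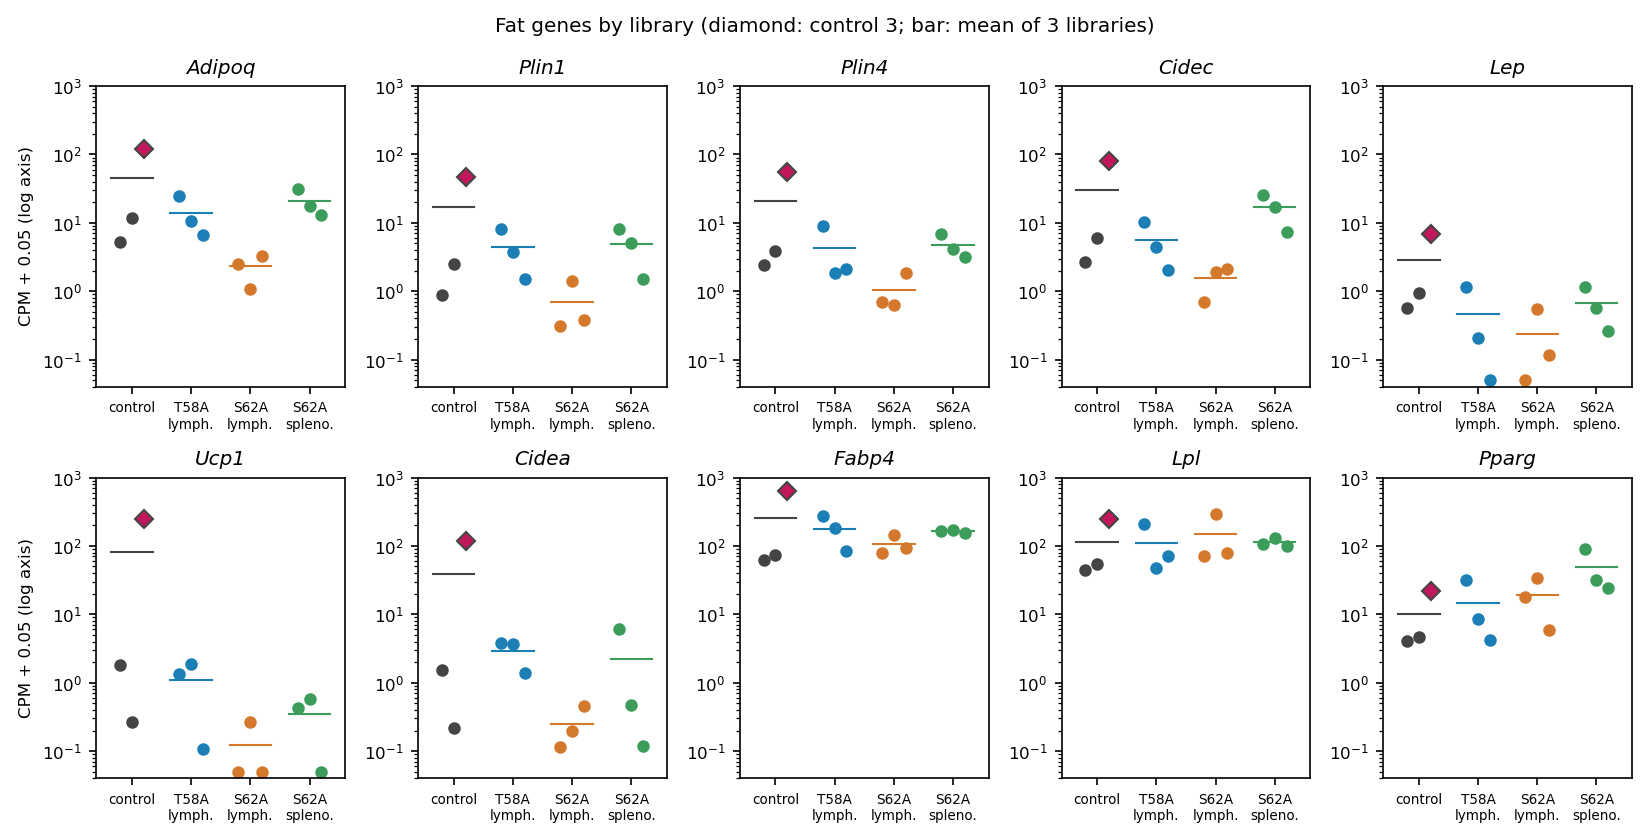
Level of each fat gene in each of the 12 libraries, as CPM plus 0.05 on a log axis, by group (lymph., lymphoma; spleno., splenomegaly); points are libraries, the diamond is control 3 and bars are means of 3 libraries. Control 3 stands highest for 8 genes, by 135-fold over the next library for Ucp1, but not for Lpl or Pparg.

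Ucp1 (NM_009463, mm9 chr8:85814247-85822355, plus strand), the uncoupling protein of brown fat, had 34, 4 and 5665 reads in the controls, which is 1.75, 0.22 and 245 CPM. It had 1.27, 1.81 and 0.0575 CPM in T58A lymphomas, 0, 0.216 and 0 CPM in S62A lymphomas, and 0.371, 0.526 and 0 CPM in splenomegaly tissue. Control 3 alone held 98.1% of the 5775 Ucp1 reads of the series. In the 3 libraries at 0 reads, a limit of 3 reads allows up to 0.191, 0.2 and 0.21 CPM, for counting error only.

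Cidea (NM_007702, mm9 chromosome 18), a droplet protein abundant in brown fat, ran the same way, at 1.5, 0.165 and 116 CPM in control. Its level was 3.75, 3.62 and 1.32 CPM in T58A lymphomas and 0.0636, 0.144 and 0.4 CPM in S62A lymphomas. In splenomegaly tissue it was 6, 0.421 and 0.0702 CPM, so that splenomegaly 1 held 113 of the 118 Cidea reads of its group. That library also had the highest sum of skeletal muscle markers, 122 CPM against 9.04 and 13.6 CPM in the other splenomegaly libraries. Acta1, the actin of skeletal muscle, was at 25.7 CPM there and at 0.21 and 0 CPM in the others. The part of muscle or of other neighbouring tissue in the Cidea reads was not tested.

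Among the hormones, Adipoq (NM_009605, mm9 chr16:23146609-23158041, plus strand), which encodes adiponectin, was at 5.11, 11.8 and 120 CPM in control. It was at 24.2, 10.7 and 6.56 CPM in T58A lymphomas, at 2.48, 1.01 and 3.27 CPM in S62A lymphomas and at 31.6, 17.5 and 12.9 CPM in splenomegaly tissue. The 3 S62A lymphomas were the 3 lowest libraries of the series for this gene. Lep (NM_008493, mm9 chr6:29010221-29023876, plus strand), which encodes leptin, was sparse, with 244 reads in all. Its control levels were 0.516, 0.882 and 6.89 CPM, and no other library exceeded 1.11 CPM. It had 0 reads in T58A lymphoma 3 and S62A lymphoma 1.

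The droplet coat proteins Plin1, Plin4 and Cidec were, like Adipoq, highest in control 3. Plin1 (NM_001113471, mm9 chr7:86866050-86877662, minus strand), which guards the droplet against lipases, was at 0.826, 2.48 and 47.3 CPM in control and at 8.14, 3.73 and 1.44 CPM in T58A lymphomas. It was at 0.255, 1.37 and 0.333 CPM in S62A lymphomas and at 8.01, 5.05 and 1.47 CPM in splenomegaly tissue. Plin4 (NM_020568, mm9 chr17:56240014-56249225, minus strand) was at 2.37, 3.86 and 55.1 CPM in control, 8.83, 1.81 and 2.07 CPM in T58A lymphomas, 0.636, 0.575 and 1.8 CPM in S62A lymphomas and 6.84, 4.1 and 3.09 CPM in splenomegaly tissue. Every S62A lymphoma was below every other library for Plin4. Cidec (NM_001301295, mm9 chr6:113374628-113385754, minus strand), which fuses droplets into large ones, was at 2.58, 5.95 and 80.5 CPM in control and at 10.3, 4.31 and 1.96 CPM in T58A lymphomas. It was at 0.636, 1.87 and 2.07 CPM in S62A lymphomas and at 25.7, 17.1 and 7.3 CPM in splenomegaly tissue.

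Fabp4, Lpl and Pparg were spread more widely over the groups. Fabp4 (NM_024406, mm9 chr3:10204343-10208576, minus strand), a fatty acid carrier of adipocytes that macrophages and endothelium also make, was at 61.6, 73.2 and 639 CPM in control. It was at 270, 185 and 82.8 CPM in T58A lymphomas, 78, 144 and 94.7 CPM in S62A lymphomas and 167, 168 and 156 CPM in splenomegaly tissue. Controls 1 and 2 were the lowest libraries. Lpl (NM_008509, mm9 chr8:71404454-71430831, plus strand), the lipase that frees fatty acids from circulating lipoproteins, was at 43.9, 55 and 246 CPM in control and at 208, 47.5 and 71.3 CPM in T58A lymphomas. It was at 70.1, 292 and 79.7 CPM in S62A lymphomas and at 106, 130 and 101 CPM in splenomegaly tissue. The highest library for Lpl was thus S62A lymphoma 2, not control 3.

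Pparg (NM_001127330, mm9 chr6:115310969-115440419, plus strand), the receptor that drives adipocyte formation and also acts in macrophages, was at 4.03, 4.68 and 21.7 CPM in control. It was at 31.3, 8.52 and 4.14 CPM in T58A lymphomas, 17.7, 33.6 and 5.87 CPM in S62A lymphomas and 90.6, 31.3 and 24.3 CPM in splenomegaly tissue. All splenomegaly libraries were above all controls. Control 3 held 10.8% of the 4622 Pparg reads, the smallest share of the 10 genes.

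On the FPKM scale, mean levels in control were 542 ± 690 for Fabp4, 60.1 ± 103 for Ucp1, 42.3 ± 59.6 for Adipoq, 41.5 ± 70.4 for Cidea and 32.6 ± 31.9 for Lpl (SD, n = 3 for each). Cidec was at 20.6 ± 30.4, Plin1 at 11.4 ± 17.8, Pparg at 5.75 ± 5.63, Plin4 at 3.93 ± 5.75 and Lep at 0.913 ± 1.18 FPKM (SD, n = 3 for each). The SD was above or close to the mean for every gene. All genes were read in the same 3 libraries, so this SD is not the spread of a difference between genes. Fabp4 was above Ucp1 in each control, at 131, 156 and 1340 against 1.3, 0.163 and 179 FPKM. Adipoq, at 4.8, 11.1 and 111 FPKM, was above Ucp1 in controls 1 and 2 and below it in control 3. In splenomegaly tissue the order began with Fabp4 at 322 ± 17.9, Lpl at 29.7 ± 4.79, Pparg at 25.7 ± 18.8 and Adipoq at 17.9 ± 8.2 FPKM (SD, n = 3 for each). Ucp1 was at 0.206 ± 0.188 FPKM there (SD, n = 3).

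Relative to Adipoq, the brown fat genes did not keep one proportion. The ratio of Ucp1 to Adipoq FPKM was 1.61 in control 3, 0.27 and 0.0147 in controls 1 and 2, and 0 to 0.169 in the other 9 libraries. For Cidea it was 1.11 in control 3 and at its lowest 0.00621 in splenomegaly 3. The Plin4 ratio varied least of these genes, between 0.035 and 0.118, with 0.0951 in control 3. Plin1, Cidec and Lep did not keep one proportion either. Their ratios ran from 0.0746 to 0.992 for Plin1, from 0.192 to 1.39 for Cidec and from 0 to 0.178 for Lep, each highest in S62A lymphoma 2. Control 3 had the lowest ratio to Adipoq of all libraries for Lpl, 0.624, and Pparg, 0.11, and these were highest in S62A lymphoma 2, at 88.6 and 20.4. The Adipoq level of that library rested on 14 reads.

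**Figure D2:**
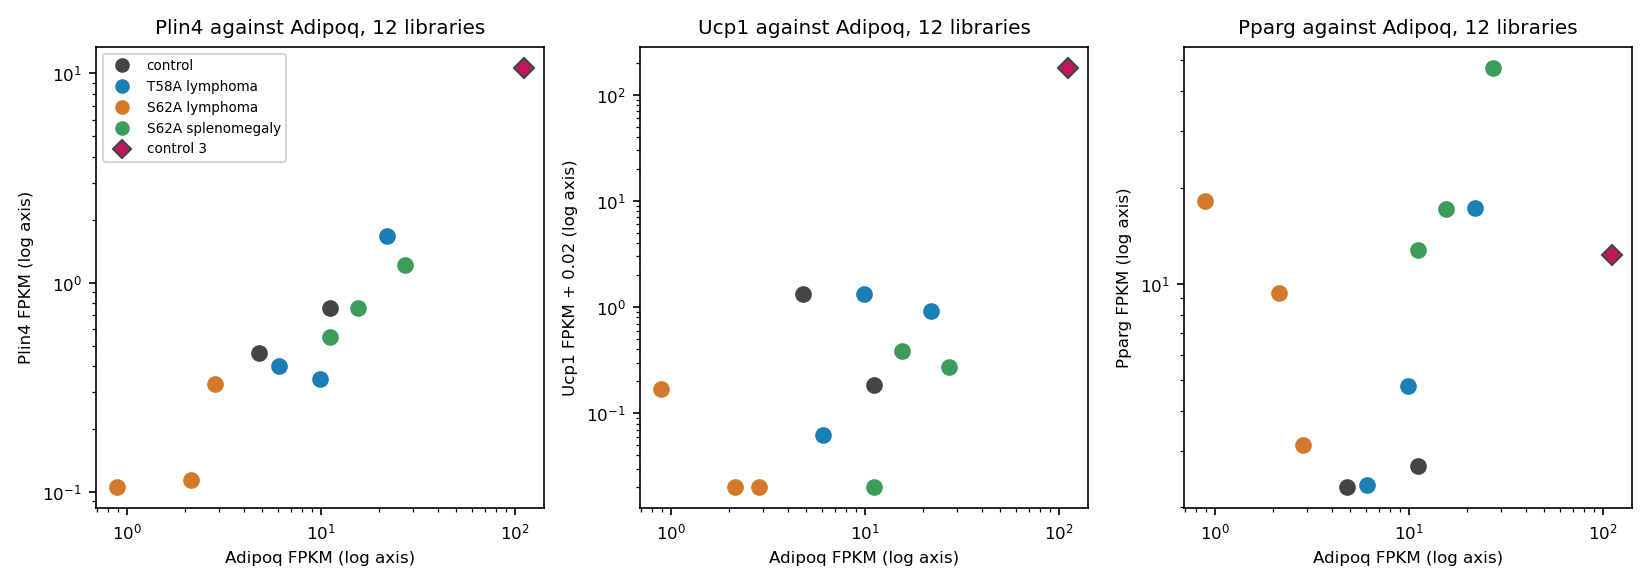
FPKM of Plin4, Ucp1 (plus 0.02) and Pparg against FPKM of Adipoq in the 12 libraries, on log axes; colours are groups and the diamond is control 3. Plin4, the gene whose ratio to Adipoq varied least, lies along one diagonal. Ucp1 leaves the cloud in control 3 alone, at 179 FPKM, and Pparg is highest in splenomegaly 1, at 47.3 FPKM.

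The other fat genes of control 3 were read from lists of pathway genes. For all tested genes only the median ratio (0.977) and the share over 10-fold (0.519%) were taken. The counts over 2-fold, here and below, thus have no share of all genes beside them. Of 21 tested genes of brown fat and thermogenesis, 15 were over 2-fold and 7 over 10-fold above controls 1 and 2, with a median of 4.23. Cox8b, a cytochrome oxidase subunit of brown fat and muscle, was highest in this list, at 66.2 CPM against 0.619 and 0.441 CPM (125-fold). Ppargc1a, the coactivator of mitochondrial genes, was at 5.54 CPM against 0.361 and 0.496 CPM. The brown fat regulator Prdm16 was not higher, at 9.01 CPM against 10.4 and 8.32 CPM. Of 17 other adipocyte genes, 13 were over 2-fold and 6 over 10-fold (median 5.77), led by Adig at 21.7 CPM against 0.516 and 0.661 CPM.

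The pathways of fat handling followed in part. Of 17 genes of fatty acid uptake and triglyceride synthesis, 9 were over 2-fold (median 2.65), with the glycerol phosphate enzyme Gpd1 at 405 CPM against 5.78 and 10.7 CPM. Of 14 genes of lipid droplet and lipolysis, 8 were over 2-fold (median 2.48), with Plin5, the droplet protein of oxidative tissue, at 18.5 CPM against 0.206 and 0.165 CPM. Fatty acid synthesis had 8 of 14 over 2-fold (median 2.18), with Thrsp at 241 CPM against 7.64 and 12.8 CPM. Adipogenic transcription factors (6 of 17 over 2-fold, median 1.41) and adipose secreted factors (4 of 10, median 1.2) had lower medians. None of the 12 genes of adipocyte progenitors was over 2-fold (median 0.851).

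Markers of other cell types in control 3 were near those of controls 1 and 2. No gene was over 2-fold in the lists of skeletal muscle (9 tested, median 0.843), macrophage (12, 0.913), fibroblast (10, 0.93), mesothelium (5, 0.866), thymic epithelium (11, 0.8), thymocyte (12, 1.04) or B cell (10, 0.967). Endothelium was the exception, with 4 of 12 genes over 2-fold and a median of 1.84. Its summed level was 198 CPM in both other controls and 245 CPM in control 3. Rn45s, Lars2, Mir6236, Rmrp and Rpph1, picked after their values were seen, also set this library apart. Rn45s, the ribosomal RNA precursor, was at 22400 CPM or 2.31% of reads in control 3 and at 1460 to 2780 CPM in the other libraries. Lars2 was at 1320 CPM against 48.8 to 139 CPM. Mir6236 was at 564 CPM against 11.9 to 49.4 CPM, Rmrp at 25.9 against 0 to 0.841 CPM and Rpph1 at 28.5 against 0.0531 to 3.93 CPM. The part of RNA preparation in the fat gene levels of this library was not tested.

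**Figure D3:**
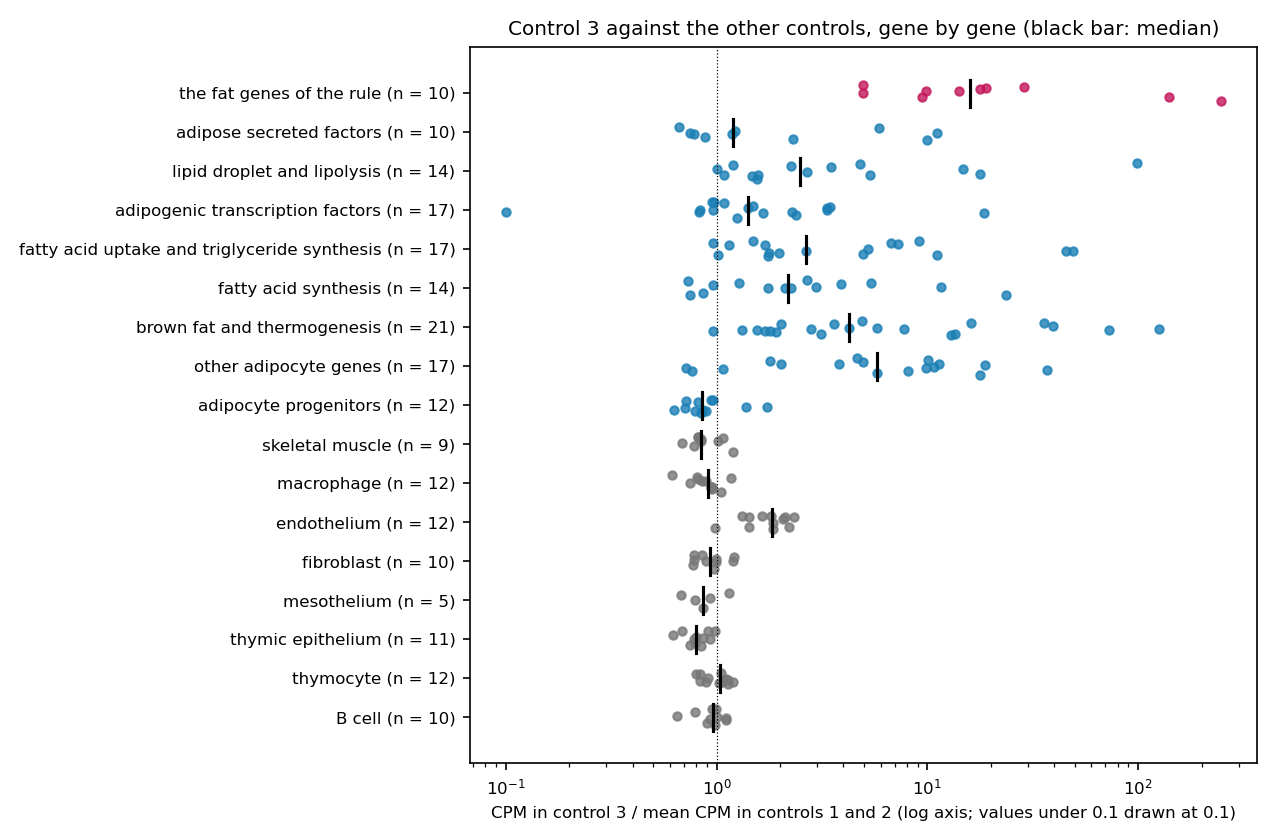
CPM in control 3 divided by the mean CPM of controls 1 and 2, on a log axis, for each tested gene of the 10 fat genes, the pathway lists (blue) and the marker lists of other cell types (grey); black bars are medians. All 10 fat genes lie at or above 4.97, and the medians of the grey lists lie between 0.8 and 1.84.

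Outside the 10 genes, Car3 was closest to Adipoq in log2 CPM over the 12 libraries, with Pearson r of 0.988, or 0.981 over the 11 libraries without control 3. The next were Cfd (0.961), A530016L24Rik (0.955), Tspan12 (0.95), Thrsp (0.945), Adig (0.940), Ces1d (0.937), Lims2 (0.929) and Kcnk3 (0.914). For Ucp1 they were Cox8b (r = 0.915), Gpd1 (0.903), Pck1 (0.897), Plin5 (0.890), Pcx (0.883), Rn45s (0.875), Aqp7 (0.874), Cpt1b (0.869), Dgat2 (0.867) and Tmem45b (0.854). Without control 3 the values of these genes for Adipoq stayed between 0.879 and 0.981, whereas those for Ucp1 went down to between 0.285 (Rn45s) and 0.727 (Aqp7). The points share library, depth and groups, and these values describe the order only.

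T58A lymphomas were compared with control first. With all controls, Ucp1 fell, with a log2 fold change of -6.28 ± 2.0 (SE, 3 against 3 libraries; edgeR quasi-likelihood test, adjusted p = 0.0299), and none of the other 9 genes passed. This 1 of 10 stands against 17.4% of all genes that fell. The groups overlapped for all 10 genes, while they did not overlap for 60% of all genes. The median over the 10 was -2.10, beside 0.01 over all genes. Without control 3, Ucp1 was at 0.08 ± 1.47 (adjusted p = 0.976). Fabp4 then rose, by 1.41 ± 0.42 (adjusted p = 0.0332), beside 13.1% of all genes that rose, and the median over the 10 genes was 0.92. Leaving out T58A lymphoma 1, 2 or 3 instead also ended the call of Ucp1 (adjusted p = 0.0798, 0.0635 and 0.0823). Without control 1, Cidec also passed, at -2.97 (adjusted p = 0.0487).

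The next comparison was of S62A lymphomas with control. With all controls, 6 of the 10 genes fell, beside 22.2% of all genes: Ucp1, Cidea, Adipoq, Plin1, Plin4 and Cidec. Log2 fold changes were -4.33 ± 1.10 for Adipoq (adjusted p = 0.00841), -4.70 ± 1.45 for Plin1 (0.0222), -4.34 ± 1.21 for Plin4 (0.0137), -4.28 ± 1.22 for Cidec (0.0153) and -7.55 ± 2.29 for Cidea (0.0203), all SE with 3 against 3 libraries by edgeR. Ucp1 fell too (adjusted p = 0.0101), with 3 reads against 5703 and a ratio of 1400 in favour of control (95% counting interval 479 to 6790). Lep was at -3.85 ± 1.53 (adjusted p = 0.0611), Fabp4 at -1.29 ± 0.76 (0.186), Lpl at 0.36 ± 0.75 (0.722) and Pparg at 0.90 ± 0.90 (0.438). The libraries did not overlap for 5 genes, beside 60.3% of all genes. The median over the 10 was -4.30, beside 0.00 over all genes.

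Without control 3, the difference of Adipoq was less steep, at -1.90 ± 0.66, and it alone still passed (adjusted p = 0.0483; 17.3% of all genes fell). Groups did not overlap for 8 of the 10 genes, beside 64.8% of all genes. Fabp4, Lpl and Pparg were among the 8 and were higher in S62A lymphomas. Adipoq was at 2.48, 1.01 and 3.27 CPM against 5.11 and 11.8 CPM. Plin1 was then at -1.35 ± 0.98 (adjusted p = 0.315), Plin4 at -1.63 ± 0.78 (0.134), Cidec at -1.48 ± 0.77 (0.16), Cidea at -2.01 ± 1.52 (0.332) and Ucp1 at -3.70 ± 1.72 (0.121). Fabp4 turned to 0.64 ± 0.41 (adjusted p = 0.246), Lpl was at 1.57 ± 0.71 (0.112) and Pparg at 2.12 ± 0.97 (0.115). The median was -1.55. With S62A lymphoma 1 left out instead, 3 genes passed, and Plin1 (adjusted p = 0.0688), Cidec (0.0516) and Cidea (0.0625) did not. Without S62A lymphoma 2, Lep passed (adjusted p = 0.0424) and Cidea did not (0.0629), and without S62A lymphoma 3, Plin1 did not (0.0663).

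**Figure D4:**
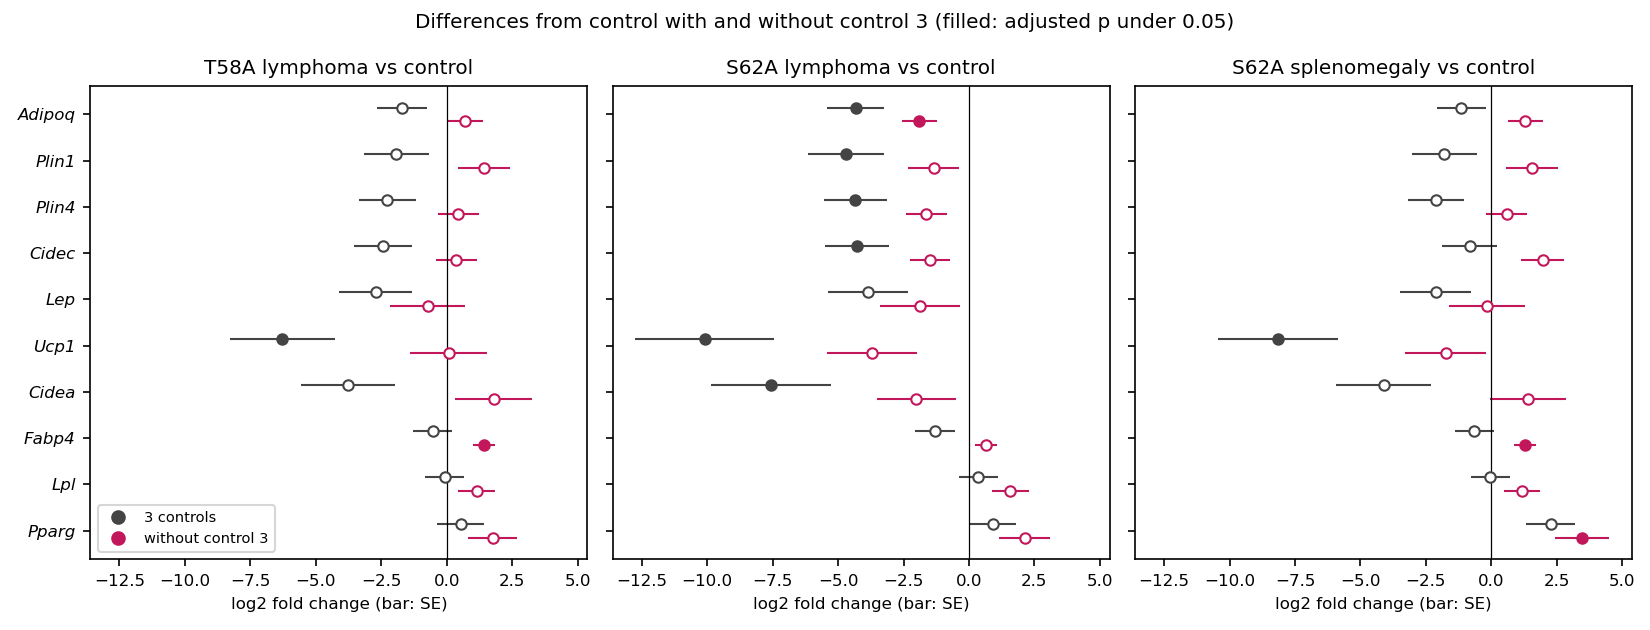
Log2 fold change of each fat gene from control in the 3 other groups, with all controls (grey) and without control 3 (red); bars are SE and filled points have an adjusted p under 0.05. Without control 3 the S62A lymphoma values of Adipoq move from -4.33 to -1.90, and the T58A and splenomegaly values of Adipoq, Plin1, Plin4 and Cidec change sign.

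Splenomegaly tissue was compared with the same controls. With all of them, Ucp1 fell, with a log2 fold change of -8.14 ± 2.30 (SE, edgeR, adjusted p = 0.0127), 1 of 10 beside 26.3% of all genes. Pparg was at 2.26 ± 0.93 (adjusted p = 0.0623), and was the 1 gene whose groups did not overlap, beside 70.5% of all genes. The median over the 10 was -1.47, beside -0.08 over all genes. Without control 3, Pparg rose by 3.48 ± 1.03 (adjusted p = 0.0222) and Fabp4 by 1.28 ± 0.42 (adjusted p = 0.0328), 2 of 10 beside 17.9% of all genes. Ucp1 was then at -1.75 ± 1.53 (adjusted p = 0.389), Adipoq at 1.29 ± 0.67 (0.153) and Cidec at 1.96 ± 0.81 (0.0771), and the median was 1.29. Cidea passed when control 2 (-4.71, adjusted p = 0.0377) or splenomegaly 1 (-7.39, adjusted p = 0.0419) was left out.

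Markers of other cell types that express Fabp4, Lpl or Pparg differed between some of the same groups. The 12 macrophage markers summed to 620 to 726 CPM in control, 1860 to 2650 in T58A lymphomas, 1590 to 2370 in S62A lymphomas and 4390 to 8030 CPM in splenomegaly tissue. In edgeR, 9, 9 and 11 of the 12 rose against control in T58A lymphomas, S62A lymphomas and splenomegaly tissue (7, 6 and 11 without control 3), none fell, and no macrophage marker was at 0 reads in any library. The 12 endothelial markers summed to 198 to 245 CPM in control and 519 to 866 CPM in splenomegaly tissue, where all 12 rose, also without control 3. In T58A lymphomas they summed to 280 to 367 CPM, and 3 rose and 0 fell (5 and 0 without control 3). In S62A lymphomas they summed to 204 to 278 CPM, and 0 rose and 1 fell (0 and 0 without control 3). In both lists splenomegaly 1, the library with the most Pparg, had the highest sum. Their part in the levels of Fabp4, Lpl and Pparg was not tested.

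Between the mutants, no fat gene passed in S62A against T58A lymphomas, beside 3.15% of all genes that changed (edgeR). Adipoq had the smallest adjusted p, 0.164, with a log2 fold change of -2.61 ± 1.03 (SE), and was the only gene of the 10 at an unadjusted p under 0.05 (0.0278). DESeq2 called Adipoq alone, at -2.62 (adjusted p = 0.0315). The libraries did not overlap for 4 genes, Adipoq, Plin1, Plin4 and Cidea, beside 21.1% of all genes. The median was -1.96, beside -0.01 over all genes. Control 3 enters this fit through the shared estimate of the spread, the filter on low counts and the adjustment of p (15960 genes were tested without it). Without it, again none passed, beside 1.13% of all genes, and Adipoq was at -2.61 ± 0.63 (adjusted p = 0.0674).

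Splenomegaly tissue and S62A lymphomas carry the same mutant. Here Adipoq rose by 3.19 ± 1.05 (SE, edgeR, adjusted p = 0.0239) and Cidec by 3.45 ± 1.19 (adjusted p = 0.0287) in splenomegaly tissue, 2 of 10 beside 25.6% of all genes that rose. Libraries did not overlap for 5 genes, Adipoq, Plin1, Plin4, Fabp4 and Cidec, beside 58.1% of all genes. Plin1 was at 2.90 ± 1.38 (adjusted p = 0.0962) and Plin4 at 2.22 ± 1.14 (0.12), and the median was 2.09, beside -0.07 over all genes. Without control 3, 4 genes passed, beside 24.1% of all: Adipoq (adjusted p = 0.00227), Cidec (0.00361), Plin1 (0.0251) and Plin4 (0.029). With all controls the calls depended on single libraries. No gene passed without S62A lymphoma 1 or 2 or without splenomegaly 1, where Adipoq had an adjusted p of 0.0598, 0.078 and 0.0673. Cidec was lost without S62A lymphoma 3 (0.0562) or splenomegaly 2 (0.0518).

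Other genes of fat were read from the same fits. Their counts stand beside the shares of all genes that rose and fell with all controls: 18.8% and 17.4% for T58A lymphomas, 21.9% and 22.2% for S62A lymphomas, 22.9% and 26.3% for splenomegaly tissue, each against control, and 25.6% and 28.6% in splenomegaly tissue against S62A lymphomas. Without control 3 these shares were 13.1% and 12.5%, 15.8% and 17.3%, 17.9% and 21.8%, and 24.1% and 26.6%.

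Among 17 other adipocyte genes, 8 fell and none rose in S62A lymphomas against control (median -2.35), among them Adig at -6.31 ± 1.70 and Lgals12 at -2.90 ± 0.75 (edgeR, adjusted p = 0.0118 and 0.00914). Without control 3 none passed, with a median of -1.27, and Adig was at -2.62 ± 1.12 (adjusted p = 0.0955) and Lgals12 at -1.95 ± 0.70 (0.0545). In T58A lymphomas 1 fell (median -1.28; without control 3, 1 rose and the median was 0.57). In splenomegaly tissue against S62A lymphomas 7 rose and 1 fell (median 2.01), and the count was 8 and 1 without control 3. The risen genes included Cyp2e1, at 4.86 ± 1.22 (adjusted p = 0.00587), and Ffar2, a receptor for short fatty acids that granulocytes also carry, at 6.16 ± 1.0 (adjusted p = 0.000432).

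Of 21 genes of brown fat and thermogenesis, 2 rose and 7 fell in S62A lymphomas against control (median -1.19; 4 and 4 without control 3, median -0.18). Esrrg, a nuclear receptor of oxidative metabolism, had 0 reads in all S62A lymphomas and 0.671, 0.882 and 1.39 CPM in control. It fell (edgeR, adjusted p = 0.00117; 0.00496 without control 3) and was at least 15-fold lower at a limit of 3 reads over the group, or at least 11.5-fold without control 3. In T58A lymphomas 2 rose and 2 fell (median -0.88), against 5 and 0 without control 3 (median 0.44), and in splenomegaly tissue 2 rose and 4 fell (median -1.69), against 2 and 0 (median 0.34). With all controls, the counts in T58A lymphomas and splenomegaly tissue are thus below the shares of all genes. Lhx8 rose in all 3 of these comparisons, which share the controls and rest on 9 control reads. In splenomegaly tissue it rose by 5.09 ± 1.17 (adjusted p = 0.00418; 5.50 ± 1.5 and 0.0153 without control 3), while in T58A and S62A lymphomas it did not pass without control 3 (adjusted p = 0.0652 and 0.0501). Otop1, a proton channel, was at 8.89, 4.79 and 15.6 CPM in T58A lymphomas and at 25.1, 10.5 and 21.1 CPM in S62A lymphomas, against 0.413, 0.11 and 10.3 CPM in control.

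In the lists of lipid metabolism, genes moved both ways. Of 17 genes of fatty acid uptake and triglyceride synthesis, 3 rose and 9 fell in S62A lymphomas against control (median -1.19; 3 and 6 without control 3). Vldlr, a receptor for lipoproteins, rose by 3.83 ± 0.45 (edgeR, adjusted p = 9.25e-05), and by 4.46 ± 0.42 without control 3 (0.000103). Fabp5, a relative of Fabp4, fell by 2.75 on the log2 scale (adjusted p = 9.19e-05), and was at -2.68 without control 3 (0.000594). In T58A lymphomas 1 rose and 5 fell (3 and 3 without control 3), and in splenomegaly tissue 2 rose and 7 fell (5 and 3). The 1 that rose in T58A lymphomas was again Vldlr, at 3.29 ± 0.44 (adjusted p = 0.000288; 3.93 ± 0.41 and 0.000269 without control 3). Of 14 genes of fatty acid synthesis, 6 fell and 1 rose in each kind of lymphoma, and 8 fell and none rose in splenomegaly tissue. Without control 3 the falls were 3 and 4 in the T58A and S62A lymphomas and 4 in splenomegaly tissue. Thrsp fell in S62A lymphomas, at -7.17 ± 1.37 (adjusted p = 0.00184) and, without control 3, at -4.08 ± 0.65 (0.00143).

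Of 14 genes of lipid droplet and lipolysis, 2 rose and 4 fell in S62A lymphomas (2 and 1 without control 3). Plin2, a droplet protein of most cell types, rose by 1.15 ± 0.22 (edgeR, adjusted p = 0.00173; 1.39 ± 0.21 and 0.00114 without control 3). G0s2, an inhibitor of the triglyceride lipase, fell, at -3.44 ± 0.77 (adjusted p = 0.00461) and, without control 3, at -2.26 ± 0.62 (0.0204). Among 10 adipose secreted factors, 3 fell in S62A lymphomas (1 without control 3), including Cfd, or adipsin, at -4.17 ± 1.03 (adjusted p = 0.00736), or -2.17 ± 0.69 without control 3 (0.0348). Cfd was at 6.05, 4.89 and 7.73 CPM there, against 9.5, 46.5 and 280 CPM in control. Of 17 adipogenic transcription factors, 10 rose and 4 fell in splenomegaly tissue against S62A lymphomas (median 2.11; 12 and 4 without control 3). In the same comparison 7 of 12 macrophage markers and 10 of 10 B cell markers rose and none fell. The part of these cells in the count of transcription factors was not tested. Rxra, the partner of Pparg on DNA, rose by 2.50 ± 0.19 (adjusted p = 4.63e-06). Klf15 fell in S62A lymphomas against control, at -6.00 ± 0.68 (adjusted p = 7.15e-05) and, without control 3, at -5.71 ± 0.72 (0.000416). Of 12 progenitor genes, 5 rose and 4 fell in splenomegaly tissue against control (5 and 3 without control 3), with Pdgfra higher by 3.38 ± 0.27 (adjusted p = 5.33e-06), or 3.31 ± 0.33 without control 3 (7.99e-05). Ly6a also rose, by 4.34 ± 0.43 (1.83e-05), or 4.28 ± 0.53 without control 3 (0.000242). It was at 1520, 1150 and 1220 CPM there, against 62.9, 69.7 and 59.2 CPM in control. Markers of B cells and endothelium rose in the same tissue, and the part of other cell types in the Ly6a level was not tested. Dact2 fell, at -4.17 ± 0.39 (1.48e-05), or -4.27 ± 0.45 without control 3 (0.000102). Dlk1 fell too (adjusted p = 0.00535, or 0.0151 without control 3), with 0 reads against 72. It was at least 16.9-fold lower at a limit of 3 reads over the group.

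In S62A against T58A lymphomas, 0.859% of all genes rose and 2.29% fell (edgeR; 0.207% and 0.921% without control 3). No gene of the pathway lists rose. Of 12 progenitor genes, 5 fell (median -0.91), among them Gas1 at -3.07 ± 0.33 (adjusted p = 0.00723) and Ly6a at -1.99 ± 0.39 (0.0278). Of 17 transcription factors, Klf15 fell, at -3.18 ± 0.65 (adjusted p = 0.0307), as did Rxra, at -0.88 ± 0.19 (0.0328). Of the genes of uptake and triglyceride synthesis Fabp5 fell, at -1.33 ± 0.31 (adjusted p = 0.0457). Of those of brown fat and thermogenesis Esrrg fell (0.0278), at least 10-fold lower at a limit of 3 reads over the group. None passed in the other 4 lists. Without control 3, only Gas1 of these named genes still passed (adjusted p = 0.0164), with Klf15 at 0.0508, Rxra at 0.0548, Fabp5 at 0.0746, Esrrg at 0.0503 and Ly6a at 0.0503. With only these 2 groups in the fit, 0 of all 14138 genes tested passed, so none of the named genes did.

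Sample codes in the titles begin with G for controls 1 and 2, with H for control 3 and the T58A lymphomas, and with I for all S62A libraries. What the letter stands for is not given, and for the S62A groups letter and group cannot be told apart. The same holds for T58A lymphomas against control once control 3 is left out, as G then marks the controls and H the lymphomas. The only control among the H libraries is control 3, so a comparison within that letter is one of this library. Among these libraries T58A lymphomas had 24.2, 10.7 and 6.56 CPM of Adipoq and control 3 had 120 CPM.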

How the data were processed

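Poly(A) RNA of thymic tissue was sequenced on an Illumina instrument from libraries that keep strand, per the labels' protocols. The authors deposited whole-number read counts and FPKM values (reads scaled to transcript length and library) for 36141 RefSeq transcripts on mm9. The submitters' processing notes name Bowtie 1.0.0, bcl2fastq 2.20.0.422 and DESeq2. How reads were counted, with which strand setting and what was done with reads of several matches is not given in the sources used here. Starts in the files count from 0 and are printed counted from 1. Of 17613 symbols with 1 transcript, 9426 had an end minus start equal to the RefSeq gene length, and 465 were equal after adding 1.

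Counts were fitted in R 4.3.3 with edgeR 4.0.16 (TMM, filterByExpr with a minimum count of 10, glmQLFit, glmQLFTest; group as the only term, all 12 libraries) and adjusted by Benjamini and Hochberg over all genes tested, at 0.05. The 10 genes and all lists were chosen with earlier results of these data known. Named beside the 10 were, per pathway list and comparison, up to 2 risen and 2 fallen genes with the smallest adjusted p, and the 10 genes most like Adipoq and Ucp1 by Pearson r (log2 CPM, prior count 2). The result of 1 gene that the rule named is not reported here. Single genes shown for control 3 were chosen after their values were seen. Alternatives were DESeq2 1.42.0, limma 3.58.1 on log2(FPKM + 0.1) and log2(FPKM + 1), other scalings, no filter, 2 groups alone, the transcript with the fewest reads, each library left out, and libraries with title code H alone. The limit for 0 reads (3 counts) and the 95% interval cover only counting error, as PCR copies cannot be told from separate molecules here.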

Additional observations from a re-analysis of the deposited data

How the results depend on the processing

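No paired analysis was possible because replicates were numbered in order of deposit and the labels share no number between groups. With 3 libraries a group, control 3 decides most comparisons with control. Lep had 244 reads in all 12 libraries. Scaling by RLE or library size, no filter and the transcript with the fewest reads changed no call, and 1 direction (Lpl, 0.01 with RLE in splenomegaly against control, as with DESeq2).

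Counts of called fat genes changed as follows, with the share of all genes called in either direction in parentheses. In T58A lymphomas against control, 0 passed with only the 2 groups in the fit (45.6%) or with limma at a pseudocount of 0.1 (37.6%) or 1 (38.8%). Among libraries with code H, where the only control is control 3 and is assumed to vary like the lymphomas, 2 passed (2.6%). In S62A lymphomas against control, 3 passed with only the 2 groups (46.4%; Lep, Cidea and Ucp1 then failed the filter), 3 with limma on log2(FPKM + 0.1) (44.3%), 1 on log2(FPKM + 1) (43.3%), and 4 with DESeq2 (48.6%). In S62A against T58A lymphomas DESeq2 called 1 (11.3%), and 0 passed with only the 2 groups (0%). In splenomegaly tissue against S62A lymphomas, 5 passed with only the 2 groups (47.3%) and 3 with DESeq2 (57.0%). In splenomegaly tissue against control the count stayed at 1, but with DESeq2 (2.31, adjusted p = 0.0121), only the 2 groups (2.29, 0.0324) and limma (2.33 and 2.07, 0.0455 for both) it was Pparg, which rose, in place of Ucp1. With only the 2 groups, Ucp1 failed the filter in splenomegaly tissue against control and so was not tested. Lep, Cidea and Ucp1 failed it in splenomegaly tissue against S62A lymphomas, and Lep and Ucp1 in S62A against T58A lymphomas. DESeq2 gave no adjusted p for Plin4, Cidea and Ucp1. In T58A lymphomas its 1 call was Cidec, at -2.45 (adjusted p = 0.0303). The causes were not tested.

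With single libraries left out, counts ran from 0 to 2 in T58A lymphomas against control, 1 to 6 in S62A lymphomas against control, 1 to 2 in splenomegaly tissue against control, 0 to 0 in S62A against T58A lymphomas and 0 to 4 in splenomegaly tissue against S62A lymphomas. Of 50 log2 fold changes, 16 reversed without control 3, while other left-out libraries together gave 12 reversals.

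Reversed log2 fold changes lay near 0 with limma on log2(FPKM + 0.1) and + 1: for T58A lymphomas against control, Fabp4 0.15 and 0.14 and Lpl 0.05 with both. For splenomegaly tissue they were Fabp4 0.10 and 0.09, Cidec 0.33 and 0.19, and Lpl 0.30 and 0.27. Among libraries with code H, Pparg was at -0.55.

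Ranges over left-out libraries for T58A lymphomas against control were Adipoq -2.40 to 0.71, Plin1 -2.70 to 1.42, Plin4 -3.40 to 0.44, Fabp4 -0.99 to 1.41, Cidec -3.24 to 0.37, Cidea -4.34 to 1.79, Ucp1 -6.96 to 0.08, Lpl -0.95 to 1.14 and Pparg -0.68 to 1.75. For splenomegaly tissue against control they were Adipoq -1.68 to 1.29, Plin1 -2.36 to 1.55, Plin4 -2.66 to 0.58, Fabp4 -1.13 to 1.28, Cidec -1.38 to 1.96, Cidea -7.39 to 1.39 and Lpl -0.43 to 1.17. For S62A lymphomas against control they were Fabp4 -1.76 to 0.64 and Lpl -0.62 to 1.57. For S62A against T58A lymphomas they were Lep -3.41 to 1.11, Lpl -0.54 to 1.31 and Pparg -0.31 to 1.58, and for splenomegaly tissue against S62A lymphomas Lpl -0.74 to 0.58. The fits without control 3 for comparisons of lymphoma and splenomegaly tissue and for the lists were chosen after seeing the data.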
